A study of Homo sapiens with 12 samples.

Results

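Adhesion G protein-coupled receptors (GPCRs) were examined in the human myeloma line H929, an established line of malignant plasma cells. The group comprised 10 genes, chosen by gene symbol: ADGRE1, ADGRE2, ADGRE5, ADGRG1, ADGRG6, ADGRL1, ADGRL2, ADGRL3, ADGRV1 and ADGRA3. They were read by 26 of the 54675 probe sets on the array and are 10 of 19775 genes with a probe set of their own. The family list used here holds 33 genes. Of the 23 outside the group, 19 had a probe set. The 10 genes were picked with earlier results of these arrays in view, among them the higher ADGRE2 level in shBCL9, so their treatment differences are described without a test.

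RNA was measured on 12 microarrays in 4 groups of 3. One arm was infected to express a hairpin RNA, directed either at the reporter GFP (shGFP, the control) or at BCL9 (shBCL9), and in both groups GFP-positive cells were then sorted by flow cytometry. In the transfected arm, for which the labels give no sorting, cel-miR-67, a microRNA of worms, served as control and human miR-30 was the treatment (labelled a/b/c/d/e, without saying whether these were given together). No time after treatment is given, all groups are 1 cell line, and the labels do not state that replicates are separate cultures, so p-values here reflect array-to-array spread alone, possibly technical.

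Adhesion GPCRs join a long extracellular part, which binds matrix or a partner on a neighbouring cell, to the membrane-spanning part that signals through G proteins. Most hold a GAIN domain, in which many of them cut themselves, and the stretch behind the cut can act as a tethered agonist. In blood, ADGRE2 and ADGRE5 are known from leukocytes and ADGRG1 from cytotoxic lymphocytes, whereas the latrophilins (ADGRL1 to ADGRL3) are best known from synapses.

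Values are log2 intensities as deposited, and levels of different probe sets cannot be set against each other. The filter for testing asked for a value over the array's 40th percentile (4.86 to 4.95) in 3 or more arrays. This held for 34381 probe sets, and for 11 of the 26 of the adhesion GPCRs, which represented 9 of the 10 genes. All 10 plasma cell markers, among them SDC1 and TNFRSF17, lay above that level in every array. Against shGFP, SDC1 (0.88), CD38 (0.71) and SLAMF7 (0.60) were higher in shBCL9, and PRDM1 (-0.22) and TNFRSF17 (-0.18) were lower. These 5 had a limma adjusted p under 0.05, beside 41.5% of all genes tested. Array medians ran from 5.46 to 5.53. BCL9, the hairpin's target, read 7.88, 7.90 and 7.88 in shGFP and 7.73, 7.61 and 7.85 in shBCL9 (-0.15, limma adjusted p = 0.0874), so its fall did not pass the threshold. It read 7.82, 7.86 and 7.79 with cel-miR-67 and 7.99, 8.05 and 7.83 in the arrays labelled miR-30 (0.14, limma adjusted p = 0.269).

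In shBCL9, ADGRE2, ADGRL2 and ADGRE5 were higher than in shGFP, and ADGRG6 and ADGRV1 were lower. The differences ran from 1.75-fold for ADGRE5 to 4.43-fold for ADGRE2. The other 5 genes, ADGRE1, ADGRG1, ADGRL1, ADGRL3 and ADGRA3, had overlapping arrays at their brightest probe sets. By limma over all probe sets, 3 of the 11 tested were higher and 2 lower at an adjusted p under 0.05, beside 37.3% of all probe sets tested (16.3% higher and 21% lower), and 5 of 11 showed no overlap between groups, beside 49.2%. Since the genes were chosen with this comparison in view, nothing is read from these counts.

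**Figure D1:**
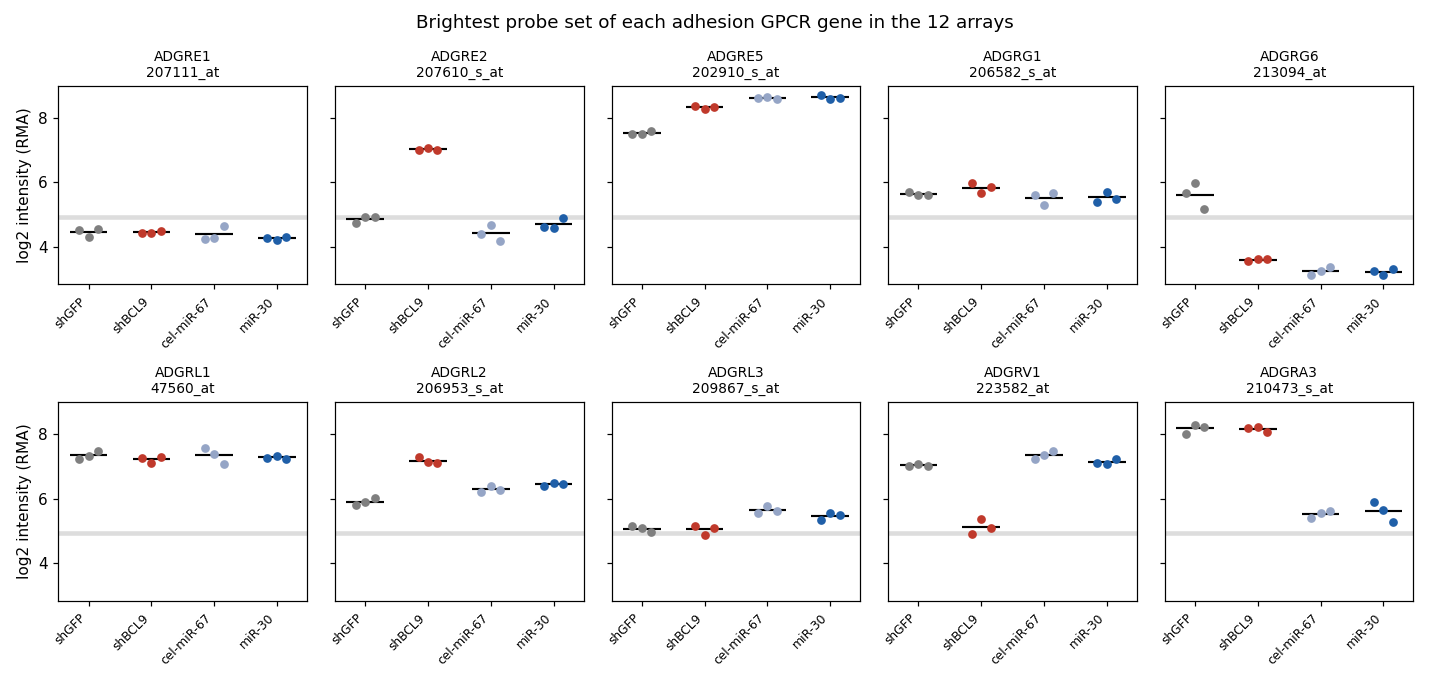
The log2 intensity of the brightest probe set of each of the 10 genes is plotted for the 12 arrays (points, 3 per group), with group means as bars and the filter level of 4.86 to 4.95 as a grey band. ADGRE2 lies above the band in shBCL9 alone, at 6.98 to 7.07, ADGRG6 in shGFP alone, at 5.19 to 5.98, and ADGRA3 separates the infected from the transfected arm.

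ADGRE2 (EMR2) is a receptor of myeloid cells whose EGF-like repeats bind chondroitin sulphate. Its probe set 207610_s_at measured 4.73, 4.92 and 4.94 in shGFP and 6.99, 7.07 and 6.98 in shBCL9, so every shBCL9 array lay above every shGFP array. The difference was 2.15 ± 0.11 (log2, SE). The shGFP mean of 4.87 ± 0.12 (SD, n = 3) lay at the filter level, and the fold of 4.43 rests on a value near background. With cel-miR-67 the same probe set measured 4.42, 4.67 and 4.19, and in the arrays labelled miR-30 it measured 4.63, 4.6 and 4.91. These groups overlapped each other and lay below all shBCL9 arrays. The second probe set, 232009_at, stayed under the filter level in all arrays, with 4.05, 4.26 and 4.04 in shGFP and 4.62, 4.35 and 4.59 in shBCL9, a difference of 0.40 ± 0.10 (SE) in the same direction.

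ADGRE5 (CD97) is a receptor of leukocytes that binds the complement regulator CD55. It was measured by 1 probe set, 202910_s_at, at 7.48, 7.48 and 7.57 in shGFP and 8.36, 8.27 and 8.31 in shBCL9. The groups did not overlap, and the difference was 0.80 ± 0.06 (SE). The transfected arm read higher still, with 8.61, 8.64 and 8.57 for cel-miR-67 and 8.69, 8.57 and 8.61 in the arrays labelled miR-30. The order was thus shGFP, then shBCL9, then both transfected groups, which overlapped. ADGRE2 and ADGRE5 have closely related EGF-like repeats, and the suffix of both probe sets marks probes that can match several transcripts. In the transfected arm, where ADGRE5 read 8.57 to 8.69, the ADGRE2 probe set read 4.19 to 4.91. The part of shared sequence in either reading was not tested.

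ADGRE1 (EMR1), the human counterpart of a marker of mouse macrophages, did not pass the filter. Its probe set lay between 4.21 and 4.64 over the 12 arrays and differed by -0.01 ± 0.10 (SE) between shBCL9 and shGFP. In the order of protein-coding genes, ADGRL1 lies next to ADGRE5, and 10 such genes separate ADGRE5 from ADGRE2. At the brightest ADGRL1 probe set the arrays of all groups overlapped, and ADGRE3, 1 gene away from ADGRE2, read 4.0 in shBCL9 and 4.1 in shGFP, under the filter level.

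ADGRE2 and ADGRE5 are known from myeloid cells, so markers of that lineage were read beside them. Of 10 myeloid markers, 3 lay above the filter level in all arrays of each group, CSF1R, ITGAM and CSF3R, of which CSF3R rose in shBCL9 (0.19, limma adjusted p = 0.0159). The mean level of the 10 was 4.59 to 4.71 in shGFP and 4.62 to 4.71 in shBCL9, and CD14, LYZ and MPO lay under the filter level in both groups. The 13 T and NK cell markers averaged 5.48 to 5.58 in shGFP and 5.33 to 5.44 in shBCL9, with 7 above the filter level in all arrays. Of these, GZMB (-1.34), PRF1 (-0.63) and GNLY (-0.44) fell and NCAM1 rose (0.26, limma adjusted p = 0.00629). For PRF1 and for NCAM1, 1 other tested probe set had the opposite sign. CD3D (0.07), CD3E (-0.12) and CD247 (0.18) were not called. All arrays are bulk RNA of 1 cell line, in which fewer cells with a transcript and less of it per cell cannot be told apart.

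ADGRG6 (GPR126) binds type IV collagen and is known for its part in the myelination of peripheral nerves by Schwann cells. Its probe set 213094_at measured 5.66, 5.98 and 5.19 in shGFP and 3.58, 3.62 and 3.65 in shBCL9. The difference was -2.00 ± 0.15 (SE), a 3.99-fold lower level, with no overlap. Readings of 3.15, 3.27 and 3.37 with cel-miR-67 and 3.28, 3.13 and 3.33 in the arrays labelled miR-30 put the transfected groups lower again. The probe set passed the filter through the 3 shGFP arrays alone, so its size rests on values under the filter level in the other groups. The shGFP arrays also spread more (SD 0.40) than those of the other groups (SD 0.03 to 0.11). The 2 other ADGRG6 probe sets stayed between 2.78 and 3.97 in all arrays, with differences of 0.02 ± 0.11 and 0.08 ± 0.08 (SE) between shBCL9 and shGFP.

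ADGRV1, an exceptionally large receptor of the links between hair cell stereocilia, is one of the genes of Usher syndrome. Its probe set 223582_at measured 7.0, 7.08 and 7.02 in shGFP and 4.90, 5.36 and 5.08 in shBCL9, a difference of -1.92 ± 0.10 (SE), or 3.78-fold. The shBCL9 mean of 5.11 lay close to the filter level, with 2 of the 3 arrays above it, so the fold rests on a value near background. The same probe set measured 7.24, 7.34 and 7.48 with cel-miR-67 and 7.10, 7.07 and 7.22 in the arrays labelled miR-30. The shBCL9 arrays were thus the lowest of the 12 and overlapped with no other group, while shGFP and miR-30 overlapped. The 4 other ADGRV1 probe sets lay between 2.47 and 3.50 in every array, under the filter level, and give no second reading of this difference.

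ADGRL2 is a latrophilin, a receptor for teneurins and FLRT proteins on neighbouring cells. Its probe set 206953_s_at measured 5.82, 5.89 and 6.01 in shGFP and 7.30, 7.13 and 7.10 in shBCL9, a difference of 1.27 ± 0.07 (SE), or 2.41-fold. With cel-miR-67 it measured 6.21, 6.38 and 6.26, and in the arrays labelled miR-30 it measured 6.40, 6.49 and 6.46. All 4 groups were separate in the order shGFP, cel-miR-67, miR-30, shBCL9. The second probe set, 1569850_at, lay between 2.40 and 2.78 in all arrays.

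ADGRL1, the first latrophilin and a receptor of the spider toxin alpha-latrotoxin, had 3 probe sets, all of which passed the filter. They differed by -0.12 ± 0.11, 0.08 ± 0.10 and -0.08 ± 0.11 (SE) between shBCL9 and shGFP, and the arrays of the groups overlapped at each. The brightest, 47560_at, measured 7.23, 7.31 and 7.47 in shGFP and 7.25, 7.10 and 7.29 in shBCL9. ADGRL3, the remaining latrophilin, measured 5.16, 5.09 and 4.98 in shGFP and 5.16, 4.88 and 5.11 in shBCL9 at 209867_s_at, close to the filter level. A further ADGRL3 probe set, 209866_s_at, was lower in all shBCL9 arrays (-0.25 ± 0.08, SE) but lay under the filter level in every array, at 3.34 to 4.50.

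ADGRG1 (GPR56) is carried by NK cells and cytotoxic T cells and binds type III collagen. At 206582_s_at it measured 5.72, 5.61 and 5.61 in shGFP and 5.98, 5.66 and 5.85 in shBCL9, with a difference of 0.19 ± 0.11 (SE) and overlapping arrays. ADGRA3 (GPR125), an orphan receptor with a tail that binds the scaffold protein DLG1, measured 8.0, 8.28 and 8.22 in shGFP and 8.17, 8.20 and 8.04 in shBCL9 at 210473_s_at. These arrays overlapped, and the difference was -0.03 ± 0.13 (SE), changing to 0.04 after a further quantile normalization.

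**Figure D2:**
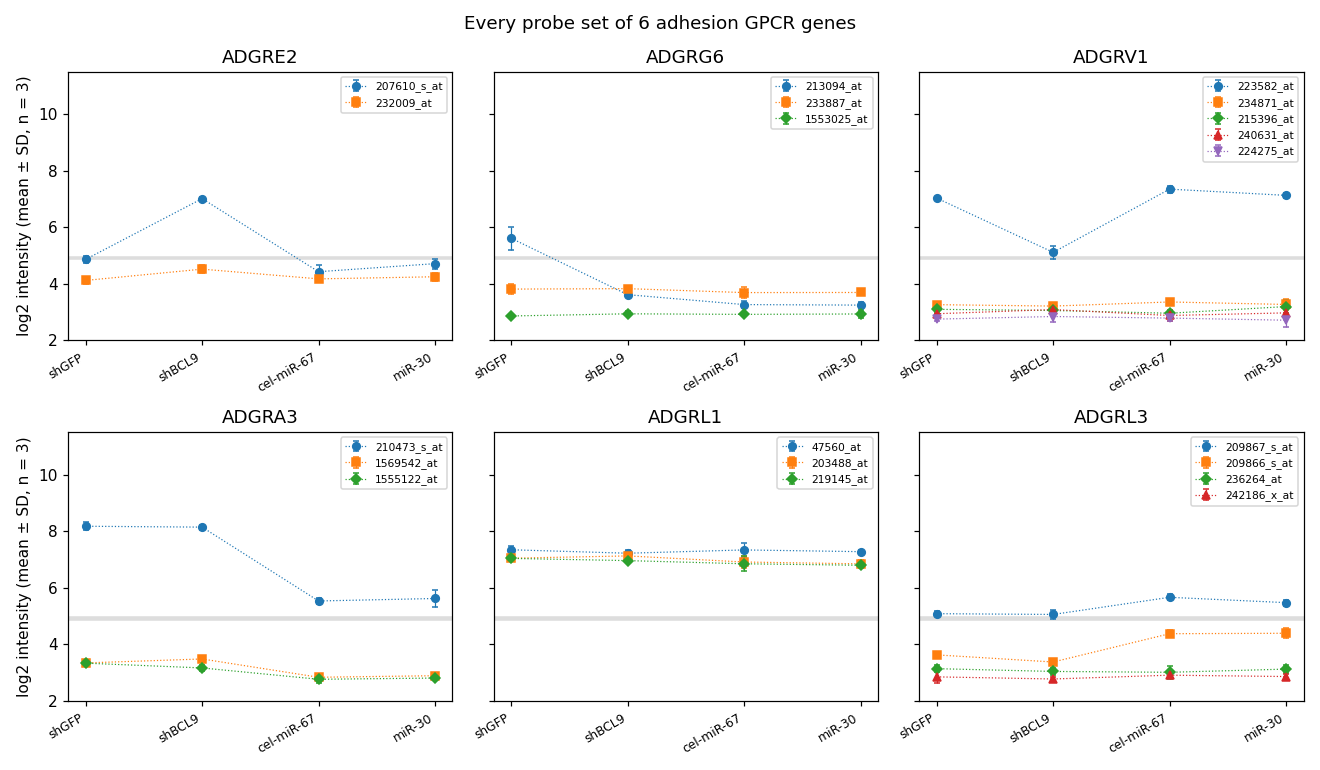
Group means ± SD (n = 3) of the log2 intensity are plotted for every probe set of 6 of the genes across the 4 groups, with the filter level of 4.86 to 4.95 as a grey band. The 3 ADGRL1 probe sets lie together, while ADGRG6, ADGRV1 and ADGRA3 each have 1 probe set above the band.

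Measures of RNA quality and labelling were read beside these differences. ACTB's 3' probe set exceeded its 5' probe set by 1.67 ± 0.08 in shBCL9 but by 1.30 ± 0.11 with shGFP (SD, n = 3; two-sided exact permutation p = 0.1, which groups of 3 cannot go below). The 18S rRNA probe sets read 13.23 ± 0.02 in shBCL9 and 12.38 ± 0.07 in shGFP. Poly-A spike-ins averaged 6.48 ± 0.48 for shBCL9, against 7.15 ± 0.17 for shGFP. For GAPDH the 3' probe set exceeded the 5' one by 0.131 in shBCL9 and 0.136 in shGFP (two-sided exact permutation p = 0.5). With the ACTB value in the model as a covariate, ADGRE2 was 1.67 ± 0.22, ADGRE5 0.75 ± 0.13, ADGRL2 1.08 ± 0.16, ADGRG6 -1.78 ± 0.34 and ADGRV1 -1.95 ± 0.24 (SE). The ACTB value itself separated shBCL9 from shGFP, and these standard errors exceed those without it. That fit could thus tell ACTB from the hairpin only in part. With the 18S signal as a covariate the standard errors were larger, and the values were 0.95 ± 0.81 for ADGRE2, 0.35 ± 0.41 for ADGRE5, 1.02 ± 0.57 for ADGRL2, -0.94 ± 1.09 for ADGRG6 and -1.38 ± 0.76 for ADGRV1. The part of RNA quality in these differences was not otherwise tested. The 18S signal separated shBCL9 from shGFP with little spread, so the fit with it could hardly tell 18S from the hairpin. No direction is read from that fit. Limma called 0 of the 11 probe sets in it (1 at an unadjusted p under 0.05), beside 3 of all 34381 (2982 at an unadjusted p under 0.05).

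Sequence before the start sites is shown for ADGRL2, which was higher, and for ADGRG6 and ADGRV1, which were lower, because BCL9 acts through the TCF and LEF factors at DNA. The windows hold the 250 bases before an annotated start, from RefSeq on GRCh38.p14, where 7 of the 10 genes matched by symbol. The motifs searched were CTTTG followed by AA, AT, TA or TT, on both strands, and capitals mark a match. ADGRL2 has 8 annotated starts, of which 1 window held matches, and that window is printed (chr1:81800126-81800375, plus strand). On the shown strand the first match reads TACAAAG, 110 bases before the start. The other reads ATCAAAG, 39 bases before it. The windows of ADGRG6 (chr6:142301757-142302006, plus strand) and ADGRV1 (chr5:90558547-90558796, plus strand) held none.
ADGRL2: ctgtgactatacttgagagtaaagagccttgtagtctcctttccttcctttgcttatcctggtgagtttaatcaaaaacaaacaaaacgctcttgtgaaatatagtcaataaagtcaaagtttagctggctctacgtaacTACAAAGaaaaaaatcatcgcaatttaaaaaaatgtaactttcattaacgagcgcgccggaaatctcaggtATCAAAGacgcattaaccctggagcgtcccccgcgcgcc
ADGRG6: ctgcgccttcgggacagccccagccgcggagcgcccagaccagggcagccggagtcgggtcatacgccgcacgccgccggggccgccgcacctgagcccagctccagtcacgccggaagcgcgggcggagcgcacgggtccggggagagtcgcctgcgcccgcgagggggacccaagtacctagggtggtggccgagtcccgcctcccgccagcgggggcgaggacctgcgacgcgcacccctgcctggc
ADGRV1: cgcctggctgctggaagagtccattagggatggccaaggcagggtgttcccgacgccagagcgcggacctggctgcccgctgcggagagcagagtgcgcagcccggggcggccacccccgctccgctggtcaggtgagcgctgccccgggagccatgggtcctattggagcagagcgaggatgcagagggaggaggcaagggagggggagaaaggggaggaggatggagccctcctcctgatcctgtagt

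Over all 35116 windows of this length, 4199 (11.96%) held at least 1 match, beside 1 of the 17 windows of these genes. The GC content was 40.4% in the ADGRL2 window, 77.6% for ADGRG6 and 68.4% for ADGRV1, against a median of 58.0% over all windows. A match is a run of letters and not a measured site, and the arrays do not show which start was used.

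In the transfected arm, no adhesion GPCR differed by more than 0.28 on the log2 scale at its brightest probe set between the arrays labelled miR-30 and the cel-miR-67 arrays. The mature miR-30 strands share the bases that select targets, and those matched in RefSeq (GRCh38.p14) are shown with the seed, bases 2 to 8, in capitals. All 3 have the same seed.
hsa-miR-30a-5p: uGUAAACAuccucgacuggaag
hsa-miR-30c-5p: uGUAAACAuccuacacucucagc
hsa-miR-30e-5p: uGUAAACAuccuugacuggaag

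ADGRE2 had the largest of these differences, 0.28 ± 0.11 (SE), with overlapping arrays near background. ADGRV1 was lower in all 3 arrays labelled miR-30 (-0.22 ± 0.10, SE), as was ADGRL3 (-0.19 ± 0.09, SE), and ADGRL2 was higher in all 3 (0.17 ± 0.07, SE). Another ADGRV1 probe set, 215396_at, under the filter level, was higher in all 3 (0.24 ± 0.10, SE). ADGRL3 measured 5.35, 5.56 and 5.49 against 5.57, 5.77 and 5.63 with cel-miR-67. ADGRE5 (0.02 ± 0.06), ADGRG1 (0.02 ± 0.11), ADGRG6 (-0.02 ± 0.15), ADGRL1 (-0.06 ± 0.11) and ADGRA3 (0.09 ± 0.13, all SE) had overlapping arrays. By limma over all probe sets, none of the 11 tested was called (3 at an unadjusted p under 0.05), beside 2.67% of all probe sets, and 3 of 11 did not overlap, beside 22.9%.

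**Figure D3:**
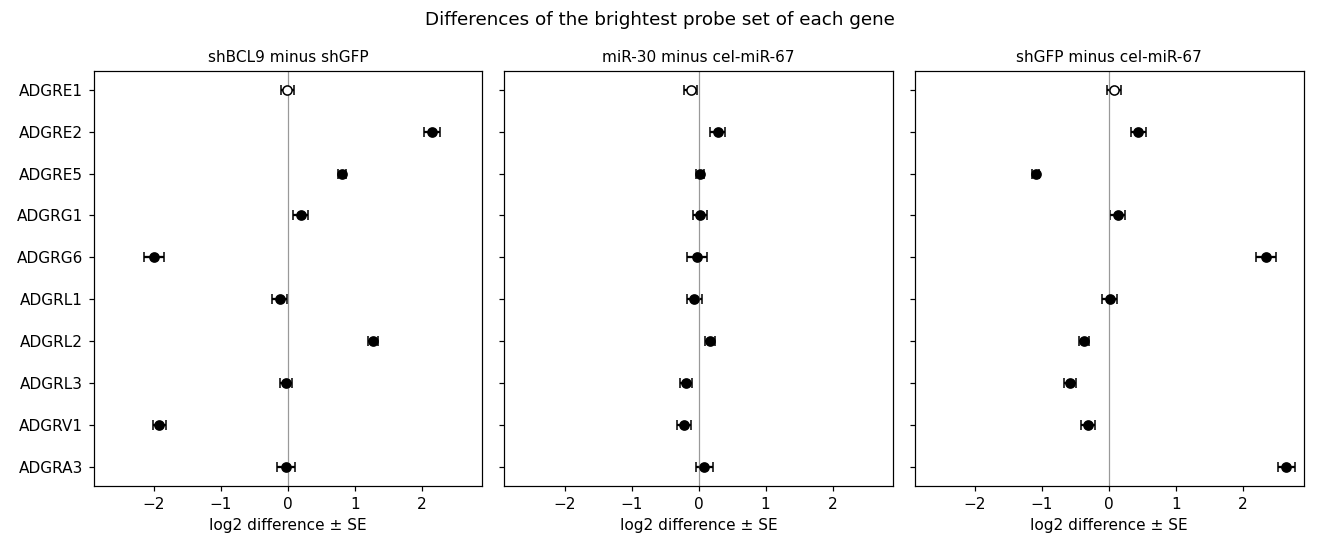
Log2 differences of the brightest probe set of each gene are plotted with their standard errors for each treatment less its control (shBCL9 left, miR-30 middle) and for shGFP less cel-miR-67 (right), with ADGRE1, which did not pass the filter, as an open circle. In the middle comparison every point lies within 0.28 of 0, and ADGRA3 has the largest value on the right, 2.64.

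The 2 control groups were compared next. The choice of genes did not name this comparison, but its shGFP arrays were in view at that choice. Genes that differed between shBCL9 and shGFP are therefore described here without a test. ADGRA3 was higher in shGFP than with cel-miR-67, and ADGRE5 was lower. ADGRA3 measured 5.40, 5.56 and 5.61 with cel-miR-67, so that shGFP was 6.25-fold higher (2.64 ± 0.13, SE). Its 2 other probe sets, under the filter level, were also higher in every shGFP array (0.51 ± 0.07 and 0.57 ± 0.08, SE). ADGRE5 was lower by 1.10 ± 0.06 (SE) on the log2 scale, or 2.14-fold.

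ADGRG6 read 2.35 ± 0.15 (SE) higher in shGFP at 213094_at, which is given without a test because this probe set passed the filter only through the shGFP arrays, whose high values were in view when the genes were chosen. Its cel-miR-67 mean of 3.26 lay under the filter level, and the other ADGRG6 probe sets differed by 0.12 and -0.06.

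Smaller differences between the controls were read for 4 further genes. ADGRL3 differed by -0.58 ± 0.09 (SE), and its probe set under the filter level, 209866_s_at, by -0.75. ADGRL2 differed by -0.38 ± 0.07 (SE), and ADGRE2, near background in both groups, by 0.44 ± 0.11 (SE). ADGRV1 differed by -0.32 ± 0.10 (SE). It was not called without cel-miR-67 replicate 3 (-0.26) or after a further quantile normalization (-0.25). ADGRG1 (0.13 ± 0.11, SE) and the 3 ADGRL1 probe sets (0.01 to 0.19) were not called. In all, limma called 7 of the 11 at an adjusted p under 0.05, ADGRG6 among them, beside 57.1% of all probe sets. The groups did not overlap at 7 of 11, beside 62.7%. Because the shGFP arrays were in view at the choice of genes, nothing is read from these counts.

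Infection, sorting, the agent and the arm cannot be told apart between these controls, and shGFP is the control of the hairpin comparison too. Beside ADGRA3, the 10 stromal, endothelial and epithelial markers averaged 5.28 to 5.37 in shGFP and 4.93 to 5.05 with cel-miR-67. Without PECAM1 the other 9 averaged 4.83 in shGFP and 4.74 with cel-miR-67. The endothelial marker PECAM1, which plasma cells also carry, read 9.93 in shGFP and 7.15 with cel-miR-67, whereas CDH5 and EPCAM lay under the filter level in both. The ACTB difference was 2.16 ± 0.09 with cel-miR-67 (SD, n = 3). The part of either in these differences was not tested.

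The lists that follow were also chosen with earlier results of these arrays known, so their p-values and counts are not independent of that choice. Among the other adhesion GPCR genes, 10 of the 19 with a probe set passed the filter. In shBCL9, 3 of these rose and 2 fell (limma adjusted p under 0.05), beside 41.5% of all genes tested (18.7% higher and 22.9% lower), with a median of 0.004 against 0.03 over all genes. CELSR2, a cadherin-type receptor of planar cell polarity, fell by 0.71 on the log2 scale (SE 0.07; limma adjusted p = 6.93e-06), and its second probe set measured -0.44. Its effect differed from that in the transfected arm by 0.62 (limma adjusted p = 0.00073), a test that 26.3% of all genes passed. With the 18S covariate CELSR2 was 0.17 ± 0.50 (SE, limma adjusted p = 0.955), in a fit that could hardly tell 18S from the hairpin. CELSR3 fell by 0.21 (limma adjusted p = 0.0292), but measured -0.12 after a further quantile normalization (limma adjusted p = 0.172). ADGRD2 (0.28), CELSR1 (0.25) and ADGRB1 (0.23) rose, with limma adjusted p-values of 0.0203, 0.0298 and 0.0236, while a further CELSR1 probe set measured 0.01. Leaving out 1 array at a time left 2 to 5 of the 5 calls, and the calls of ADGRB1, ADGRD2, CELSR1 and CELSR3 each ended without at least 3 of the 6 arrays. In the transfected arm, 0 of the 10 were called by limma (0 at an unadjusted p under 0.05), beside 4.98% of all genes (2.35% higher).

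Ligands and binding partners changed in both directions in shBCL9. Of 34 listed genes, 32 had a probe set and 19 passed the filter. Of these, 6 rose and 4 fell, beside 18.7% and 22.9% of all genes, with a median of 0.14 against 0.03 over all genes. TENM3, a teneurin and thus a partner of latrophilins, rose by 1.01 (SE 0.06; limma adjusted p = 8.55e-08), from 9.39 ± 0.07 to 10.40 ± 0.05 (SD, n = 3 each). Its other tested probe set measured 0.24, which was not called when only plain probe sets were used (limma adjusted p = 0.13). CD9, a tetraspanin, fell by 1.18 (SE 0.13; limma adjusted p = 1.79e-05), from 7.05 to 5.87. The integrin gene ITGAV rose by 0.55 (limma adjusted p = 9.19e-06). It was not called with the ACTB difference as a covariate (limma adjusted p = 0.0693), in a fit that told ACTB from the hairpin only in part. RECK, which works with ADGRA2 in Wnt7 signalling, fell by 0.31 (limma adjusted p = 0.00186), with -0.06 (adjusted p = 0.433) as the mean of its 5 probe sets. CD55, the ligand of ADGRE5, named for that role after its value was seen, fell by 0.19 (limma adjusted p = 0.0128), while ADGRE5 itself was higher. With the 18S signal as a covariate, limma called 0 of the 19 (2 at an unadjusted p under 0.05) and 0 of the 10 other adhesion GPCR genes (0 at an unadjusted p under 0.05), beside 11 of all 14725 genes, and TENM3 measured -0.01. In the transfected arm, limma called 0 of the 19 (2 at an unadjusted p under 0.05), beside 4.98% of all genes.

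Genes of G proteins, their regulators and genes acting downstream of them formed the last list. Of 39 listed, 38 had a probe set and 36 passed the filter, of which 11 rose and 9 fell in shBCL9, beside 18.7% and 22.9% of all genes, with a median of 0.08 against 0.03. RGS1, a protein that shortens G protein signals, fell by 2.39 (SE 0.12; limma adjusted p = 1.13e-08), from 7.48 to 5.09. GNAI1, an inhibitory G protein alpha subunit, rose by 1.21 (SE 0.10; limma adjusted p = 7.97e-07) and the beta subunit gene GNB4 by 0.94 (SE 0.06; limma adjusted p = 2.2e-07). The tested second probe sets of RGS1 (-1.23), GNAI1 (1.45) and GNB4 (0.40) had the same signs. In the arrays labelled miR-30, RGS1 rose by 0.49 (limma adjusted p = 0.0324) and RGS2 by 0.36 (limma adjusted p = 0.0134), but leaving out each of the 6 arrays of that arm in turn left 0 or 1 call, and RGS1 was called in none of these fits. With the replicate number as a block, RGS1 was not called (limma adjusted p = 0.0544). With the 18S covariate, limma called 0 of the 36 in shBCL9 (3 at an unadjusted p under 0.05). RGS1 thus fell in one arm and rose in the other, and the effects differed by 2.88 (limma adjusted p = 1.5e-07).

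Profiles over the 12 arrays were compared for the 6 genes whose group means lay at least 1 apart at the brightest probe set. Each profile was centred on its own mean, and the root mean square (RMS) difference from each other gene that passed the filter was taken. ADGRE2 lay closest to MORC1 (RMS 0.23), PRSS2 (0.33) and RAB36 (0.34), all highest in shBCL9. ADGRG6 lay closest to HEG1 (0.20), UNC13C (0.23) and LOC613266 (0.24), all highest in shGFP. ADGRV1 lay closest to DNAJC12 (0.12), SAMD9 and GPNMB (0.18 each), all lowest in shBCL9. ADGRE5 lay closest to STAT4 (0.09), PACSIN2 and PICALM (0.10 each), ADGRL2 to TCN2 (0.12), CYFIP1 and EMC10 (0.15 each), and ADGRA3 to LRP8, GLDC (0.14 each) and PUS7 (0.17). These are descriptions over arrays that fall into 4 groups.

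**Figure D4:**
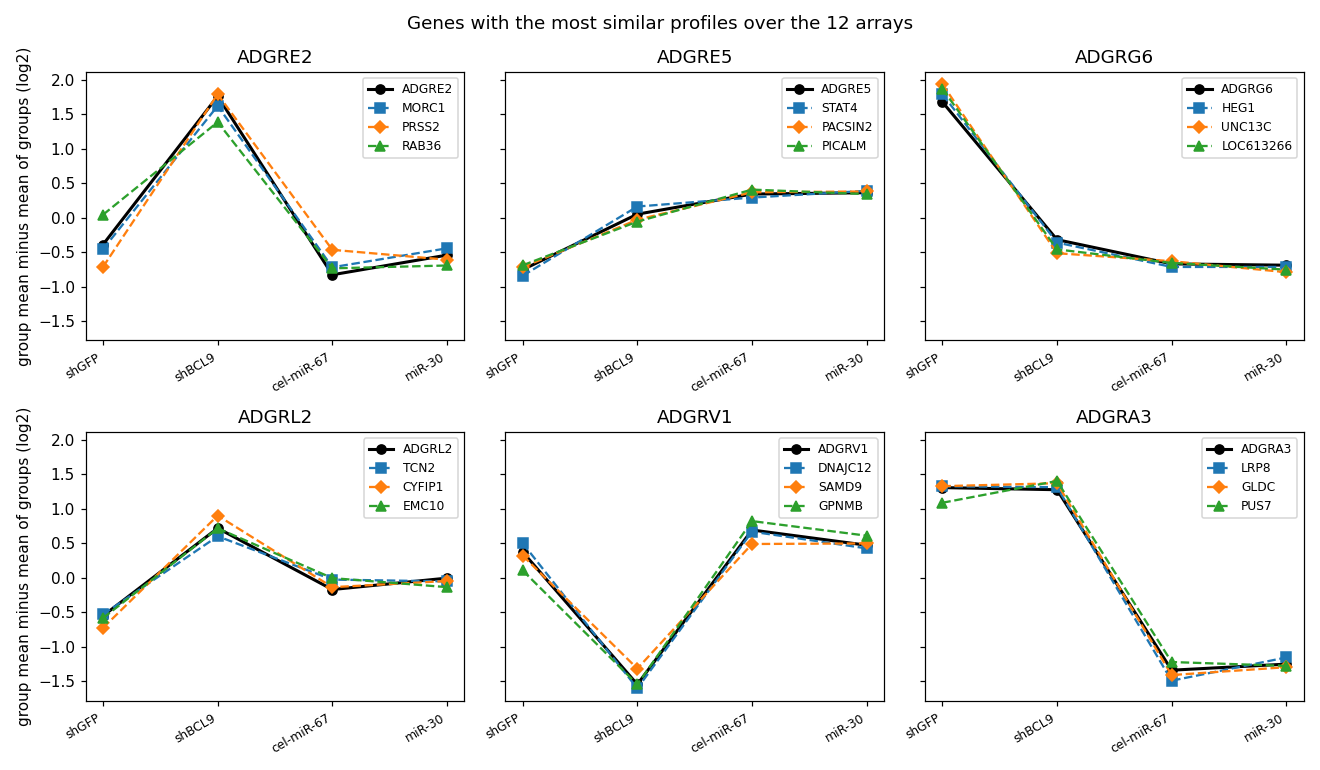
Group means of the log2 intensity, less the mean of the 4 groups, are plotted for 6 adhesion GPCR genes (black, brightest probe set) and the 3 genes closest to each over the 12 arrays (dashed). The profiles of ADGRA3 and LRP8 nearly coincide, with an RMS difference of 0.14.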

How the data were processed

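RNA of the 12 samples was extracted with Trizol, per the labels' protocols, and hybridised to 1-colour Affymetrix arrays. The deposited values are log2 intensities, 1 per probe set, and the submitters' processing notes name RMA and affy; versions are not given in the sources used here. Probe sets were named through the platform annotation, with 41097 carrying 1 symbol, 1801 several and 11777 none. The members and lists were chosen with earlier results of these data known. Groups were compared with limma 3.58.1 in R 4.3.3, over 34381 probe sets for the 10 genes and over 14725 genes, each by its brightest probe set, for the lists, with all 12 arrays in 1 fit and Benjamini-Hochberg adjustment over all features. Values of probe sets under the filter came from a fit without it. Named genes were the 10 members, every other family gene called in a comparison, up to 4 called genes per comparison by adjusted p from the partner and signalling lists, and the 3 genes with the closest profile for each member whose group means lay at least 1 apart. Same-numbered arrays deviated together with correlations of 0.0595, 0.104 and 0.0689 in the infected arm and 0.184, 0.0883 and 0.281 in the transfected arm, so the numbers were not taken to pair arrays. On simulated data for shBCL9 against shGFP over 34381 probe sets, 11 of 50 changes of 0.25, 33 of 50 of 0.5 and all 50 of 1 were recovered, with 8 false calls. Far fewer probe sets were changed there than the 37.3% called in the real comparison, so the recovery need not hold for these data. The number of arrays limits the precision. One gene that the naming rule picks from the signalling list is not reported here.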

Additional observations from a re-analysis of the deposited data

How the results depend on the processing

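The adhesion GPCR genes were chosen with the shBCL9 comparison in view, so their counts there say nothing about stability; 5 probe sets were called in each leave-one-out fit and 0 with the 18S rRNA signal as a covariate. Between the controls it was 6 to 8 without single arrays. With the 18S covariate, the counts in shBCL9 were 0 for the other adhesion GPCR genes, 0 for partners and 0 for signalling genes, and 0 signalling genes in the transfected arm (5 at an unadjusted p under 0.05), by limma. In shBCL9 with that covariate, CELSR2 read 0.17 ± 0.50 (SE, limma adjusted p = 0.955) and TENM3 -0.013 ± 0.38 (SE, limma adjusted p = 0.998). The 18S signal separated shBCL9 from shGFP, so these fits could hardly tell 18S from the hairpin. The ACTB covariate, which also separated shBCL9 from shGFP, left 2, 5 and 13 calls in the 3 lists in shBCL9. A filter at the 60th percentile left 2 other adhesion GPCR genes, and leave-one-out fits 2 to 5. For partners in the transfected arm, a trended robust fit, the mean of probe sets and plain probe sets each gave 1 call. For signalling genes there, array weights gave 5 calls, the trended robust fit 4, and leave-one-out fits 0 to 1. With the replicate number as a block, the counts were 5, 0 and 7 for the adhesion GPCR probe sets in shBCL9, miR-30 and the controls, and 1 for signalling genes in the transfected arm. The ACTB difference between shBCL9 and shGFP was 0.38 as deposited and 0.36 after quantile normalization, an alternative chosen after seeing the data. Of all genes called in shBCL9, 44.9% were higher, against 52.4% after quantile normalization and 36.7% after median centring. In the transfected arm these shares were 47.1%, 58.3% and 40.6%. The cause of these changes was not tested.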
